A study of Mus musculus with 14 samples.

Results

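Expression was described in the 4 vehicle libraries of LLC1 tumours, of 14 libraries in all, over the 21152 genes of the table. LLC1 is the mouse Lewis lung carcinoma line, and the tumours were grown in mice given DMSO vehicle, with treatment lasting 16 days. The other 10 libraries came from tumours of mice given MYCi975, an inhibitor of the transcription factor MYC (50 mg/kg, 4 libraries), TMP195, an inhibitor of class IIa histone deacetylases (50 mg/kg, 3 libraries), or both compounds (3 libraries, with no doses stated). RNA was taken from a tumour fraction described as enriched, and the series calls the material bulk tumour. The sources used here do not give the strain, sex or age of the hosts, the site of the graft or the method of enrichment. Nothing in the labels ties a library to an animal of its own, so the spread between libraries may be technical in part. Throughout, vehicle replicates 1 to 4 are 4 libraries of 1 cell line.

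Lewis lung carcinoma arose in the lung of a mouse and is widely used as a graft in immunocompetent hosts, where the tumour becomes a mixture of carcinoma cells with fibroblasts, vessels and infiltrating leukocytes of the host. RNA of such a tumour is a sum over these cells. Genes made only by a given cell type, such as Ptprc for leukocytes, therefore report on that cell type, while housekeeping genes report on all of them. In such material fewer cells of a type and less RNA per cell cannot be told apart.

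A value below is the deposited expression value, normalised and on a log2 scale, and its lowest level of 4.05 stands for no reads. A level per kb is the mean of the 4 vehicle libraries minus the log2 of the transcript length in kb, and levels of different genes are compared only on this scale, or as shares of normalised reads per kb. Undoing the transformation put 65.6% to 69.2% of the low values of the vehicle libraries within 0.05 of a whole-read step, where evenly spread values would give 10%. The steps gave approximate depths of 14900000, 8580000, 11400000 and 8910000 reads in vehicle replicates 1 to 4, and of 7050000 to 15800000 over all 14 libraries. The mitochondrial ribosomal RNA mt-Rnr2 alone took 41.7%, 46.9%, 38.2% and 57.2% of these reads, and nuclear coding genes had 6720000, 3160000, 5560000 and 2220000 reads. Replicate 4 was thus the library with the largest mitochondrial share and the fewest nuclear coding reads, and it had the most genes at the lowest value (2744, against 880 in replicate 1). A gene with 3 reads would have a value of 4.50 in replicate 1 and of 4.85 in replicate 4. A value below the latter cannot be told from 0 in replicate 4. Of 14701 coding genes, 11782 (80.1%) had a vehicle mean above 5.05, which is used below as the detection threshold.

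To ask where the vehicle tumours stood apart from the rest, vehicle was compared with the mean of the 3 treated groups. No gene passed limma's test over all genes (0 of 13711, 0%, at an adjusted p under 0.05), and 310 genes (2.26%) had an unadjusted p under 0.05, against 686 for 5% of those tested. On the lower side the smallest p belonged to Snrk, which encodes a kinase of the AMPK-related family, Fndc3b and the ciliary transport gene Ift140, with differences of -0.57 ± 0.13 (SE), -0.37 ± 0.09 and -0.54 ± 0.13. Eml2, which encodes a microtubule-associated protein (0.71 ± 0.19), Taf6l (0.35 ± 0.11) and the neuronal nitric oxide synthase gene Nos1 (0.93 ± 0.28) had the smallest p on the higher side. Snrk was 7.34, 7.08, 6.84 and 6.90 in the vehicle libraries and 7.18 to 7.89 in the treated ones, so the groups overlapped. Eml2 was 7.11, 7.54, 6.95 and 6.76, and 5.81 to 6.91 in the treated libraries, and the groups overlapped here too. The adjusted p by limma was 1 for each of these genes. On simulated data with the spread of this comparison, 90 of 100 genes changed by 1 on the log2 scale and 99 of 100 changed by 2 were called. The simulated noise was normal and independent between genes, without a lowest value or differences in depth. The recovery in the real libraries may therefore be lower, and 0 calls do not show that the groups were alike.

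The most abundant transcripts were those of the mitochondrial genome, the cytosolic ribosome and the cytoskeleton. Without adjustment for length the highest values of any gene type were those of the mitochondrial ribosomal RNAs mt-Rnr2 (22.15) and mt-Rnr1 (18.55). The long non-coding RNA Malat1, which stays in the nucleus, followed at 16.50, after mt-Co1 (18.00) and Gm10925 (16.58). Among coding genes ranked by level per kb, 12 of the top 25 were mitochondrial, led by mt-Atp8 (17.44) and the cytochrome oxidase gene mt-Co1 (17.37). The rank of mt-Atp8 rests on its short length of 204 bases, as its value without adjustment was 15.14 against 18.00 for mt-Co1. mt-Co1 had values of 17.59, 18.21, 17.27 and 18.93, highest in replicate 4.

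Of the 13 nuclear genes in the top 25, 8 encode ribosomal proteins, with Rpl13a (14.39 per kb), Rpl26 (14.30) and Rplp1 (14.07) at the head. The others were the translation elongation factor gene Eef1a1 (14.58), the actins Actb (13.35) and Actg1 (13.05), the intermediate filament gene Vim (13.26) and the chaperone gene Hspa8 (12.95). Eef1a1 had values of 15.34, 15.72, 15.27 and 15.35, and the 4 libraries lay close together. Of its 31-base sequence words 49.8% also occur in transcripts of other genes, mostly pseudogenes, so its level as a single gene is uncertain. The same holds for Rplp1 (75.1%), Hspa8 (43.6%), Actg1 (40.2%) and Rpl13a (28.3%). Among the mitochondrial genes it holds for mt-Co2 (100%), mt-Co3 (99.9%), mt-Atp6 (99.5%), mt-Co1 (63.9%) and mt-Nd4 (62.8%), whose words recur in pseudogenes such as Gm10925, while mt-Atp8 shares 7.47%. Vim shares 0.19% of its words.

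In the first 50 nuclear coding genes, 30 encode ribosomal proteins, and genes of particular cell types also appear. S100a9, a calcium-binding protein abundant in neutrophils, had a level per kb of 12.36. It was followed by Hbb-bs (12.29) and Hba-a2 (12.26), which encode adult haemoglobin chains, and by Spp1 (12.27), which encodes the secreted phosphoprotein osteopontin. B2m, the light chain of major histocompatibility class I molecules, reached 12.22. The matrix glycoprotein gene Fn1 (11.98) and the galectin gene Lgals1 (11.88) were also among them. Spp1 had values of 12.76, 12.77, 12.53 and 13.01, while S100a9 had 11.43, 11.40, 10.85 and 11.97, lowest in replicate 3 and highest in replicate 4.

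The marker lists hold 235 distinct genes in 25 lists. A value was given for 208 of them, the other 27 were not analysed here, and 167 lay above the detection threshold. Of the 22 lists with at least 3 members of known length, 10 had a median level per kb above that of all coding genes (5.36). These were erythroid (9.45), pan-leukocyte (8.23), macrophage and monocyte (7.27), mesenchymal state (7.19), secreted tumour factor (7.12), proliferation (7.02), fibroblast (6.87), neutrophil (6.15), the list of lung cancer oncogenes and suppressors (6.13) and platelet (5.39). The platelet median rests on 4 genes, of which 2 lay above the detection threshold. Lymphocyte, vascular, epithelial and muscle lists lay below the coding median.

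**Figure D1:**
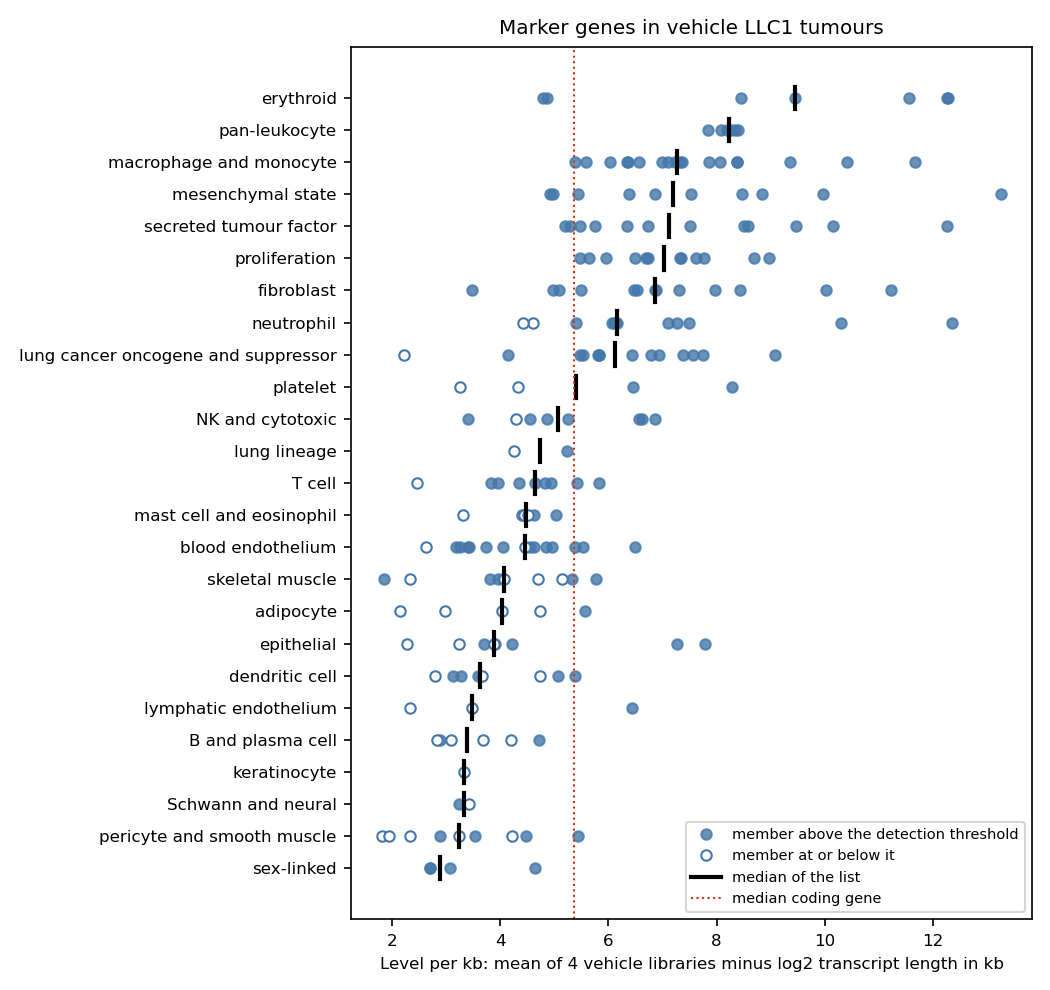
Level per kb (x axis, log2 scale) of each marker gene with a known length, in 25 lists ordered by their median (black bars). Open circles are genes at or below the detection threshold, and the dotted line is the median of all coding genes, 5.36. The erythroid, leukocyte, macrophage and mesenchymal medians lie to the right of that line and the vascular, epithelial and lymphocyte medians to its left.

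Genes of the tumour cell state were led by mesenchymal markers. Vim was 14.28, 14.23, 14.64 and 14.43 in the 4 libraries. Prrx1, a homeobox factor of mesenchymal cells, was 11.15, 11.13, 11.10 and 11.24. Zeb2 (8.47 per kb) and Zeb1 (6.86), repressors of epithelial genes, and Twist1 (7.52) were all above the coding median, while Snai1 (4.92) and the cadherin gene Cdh2 (4.97) were below it. These genes are also made by fibroblasts and, in the case of Vim and Zeb2, by leukocytes, and how the RNA divides between cells was not tested.

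Of 11 epithelial markers 8 had a value and 5 lay above the detection threshold. The adhesion gene Epcam was 4.27, 4.38, 4.39 and at the lowest value in replicate 4, so that it was not detectable at this depth. E-cadherin, encoded by Cdh1, was detected at 5.91, 5.87, 5.66 and 5.95. The simple keratins formed an exception, with Krt18 at 8.04, 8.69, 8.41 and 8.11 and Krt8, its partner in filaments, at 7.95, 8.26, 8.29 and 8.47. Per kb these keratins stood at 7.79 and 7.27, above the coding median, against 3.70 for Cdh1 and 3.24 for Epcam. Of the 9 genes of the lung lineage list 2 had a value, namely Napsa, an aspartic protease of alveolar cells (6.01, 5.37, 6.12 and 6.01), and Ager (4.70, 4.46, 4.66 and 5.0), and the other 7 were not analysed here.

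All 12 proliferation genes lay above the detection threshold. Mki67, which encodes the Ki-67 antigen of cycling cells, was 11.18, 11.05, 11.28 and 10.91. Top2a, the topoisomerase of dividing cells, was 11.26, 11.03, 11.09 and 10.91. Per kb the replication clamp gene Pcna was the highest of the list (8.97), ahead of Top2a (8.69) and Mki67 (7.77), and the lowest was Tyms (5.47). Among lung cancer genes Myc (7.74 per kb) and the suppressor Trp53 (7.38) stood above the median of the list. Erbb3 was the only one of the 14 measured members at or below the detection threshold (4.79, 5.14, 4.82 and 4.51). Myc was 8.69, 9.05, 9.27 and 8.86. Levels of RNA say nothing of mutations, which these files do not report.

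Secreted factors were headed by Spp1 (12.27 per kb), the monocyte chemoattractant Ccl2 (10.15), the neutrophil chemoattractant Cxcl1 (9.46) and Vegfa (8.57), which acts on endothelium. Ccl2 was 9.66, 9.58, 10.05 and 10.10, and Cxcl1 was 9.59, 8.80, 9.87 and 9.31. Pthlh, the parathyroid hormone-related protein gene (5.29), and Il6 (5.19) were the lowest of the 12 members with a value, though above the detection threshold.

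The pan-leukocyte, macrophage and neutrophil lists stood above the coding median per kb, and the other leukocyte lists stood below it. Ptprc, the gene of the leukocyte surface phosphatase CD45, was 10.97, 10.26, 10.68 and 10.49. All 18 macrophage and monocyte genes lay above the detection threshold. The lysozyme gene Lyz2 was the highest, at 12.42, 11.54, 12.33 and 12.01. Arg1, the arginase of tumour-associated macrophages, followed at 11.24, 10.48, 11.05 and 11.15. The lists above hold Arg1 as a macrophage marker, but which cells made it was not tested. Per kb, Lyz2 (11.68) and Arg1 (10.42) were followed by the integrin gene Itgam (9.36), the complement gene C1qa (8.38) and Cd14 (8.38). The lowest were Adgre1 (5.58) and the phagocytic receptor gene Mertk (5.38).

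Neutrophil genes covered a wide range of levels. S100a9 and S100a8 (12.36 and 10.29 per kb) stood far above Clec4d (7.49) and Retnlg (7.27). The surface antigen gene Ly6g was 4.59, 4.89 and 4.56 in replicates 1, 3 and 4 and at the lowest value in replicate 2. The granule gene Ngp was 4.57, 5.0, 4.56 and 4.70. Both lay below the detection threshold, while the receptor genes Csf3r (8.51, 8.19, 7.64 and 7.52) and Cxcr2 (7.90, 7.90, 7.42 and 7.46) were above it, at 6.16 and 6.06 per kb, close to the median of the list. S100a8 and S100a9 are also made by monocytes.

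Lymphocyte genes were detected at low level. Of 11 T cell genes 10 were above the detection threshold, with Cd3e at 6.49, 5.42, 6.13 and 5.83 and Cd8a at 6.61, 5.87, 5.31 and 6.18. Foxp3, the factor of regulatory T cells, was at the lowest value in replicates 2 and 4 and at 4.68 and 4.82 in the others. The cytotoxic granule genes Gzma (6.86 per kb) and Gzmb (6.63) exceeded the T cell receptor genes Cd3g (5.82) and Cd3e (5.42). Of the B and plasma cell markers Mzb1 was at the lowest value in all 4 libraries, whereas Pax5 was 6.08, 5.87, 5.82 and 5.76 and Ighm 6.29, 6.49, 6.13 and 6.69. Pax5 encodes a transcription factor of B cells and Mzb1 a chaperone of plasma cells. Dendritic cell genes ran from 2.79 to 5.37 per kb. The highest was the integrin gene Itgax (7.88, 7.02, 7.62 and 7.04), which macrophages also make, followed by Siglech (5.07 per kb). Mast cell genes reached at most 5.02 per kb (Mcpt4).

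The fibroblast list was led by fibrillar collagen and small proteoglycans. Col3a1, a chain of fibrillar collagen, was 13.09, 13.89, 13.54 and 14.32 and stood at 11.23 per kb. The proteoglycan genes Dcn (10.02) and Lum (8.44) came next, ahead of Col1a1 (7.97), and Pi16 (3.47) was the lowest of the 13 fibroblast genes, all of which were above the detection threshold. Replicate 1 had the lowest value for 10 of the 13 and replicate 4 the highest for 8.

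Endothelial genes were present but low, with 13 of 15 above the detection threshold and a median of 4.46 per kb. The adhesion gene Pecam1 was the highest, at 7.62, 8.13, 8.15 and 8.31. Eng (5.53 per kb), a co-receptor of TGF-beta ligands, and Egfl7 (5.38) followed, while the receptor gene Tek (2.62) and the tight junction gene Cldn5 (4.46) were below the detection threshold. Leukocytes also make Pecam1. Of the 9 pericyte and smooth muscle genes with a value 4 were above the detection threshold, led per kb by the smooth muscle actin gene Acta2 (5.44), and Cspg4 was the lowest (1.82). Pdpn, a mucin-type glycoprotein of lymphatic vessels and fibroblasts, stood at 6.44, but the lymphatic genes Lyve1 (3.47) and Flt4 (2.34) were at or below the detection threshold.

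The paralogue families cover 44 groups of related genes, of which 43 had at least 2 members with a value. In 38 of the 43 the same member led in all 4 vehicle libraries. The lead, which is the difference in level per kb between the highest member and the next, was above 1 in 29 families and above 3 in 12. The leading member took over 90% of the family's normalised reads per kb in 12 families. No test is given, since the smallest two-sided p that an exact paired test over 4 libraries allows is 0.13. The choice of transcript length bears on the order: in 38 families the lead stayed above 0 under all 4 length rules tried, and in 5 it fell below 0 under at least 1 of them.

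**Figure D2:**
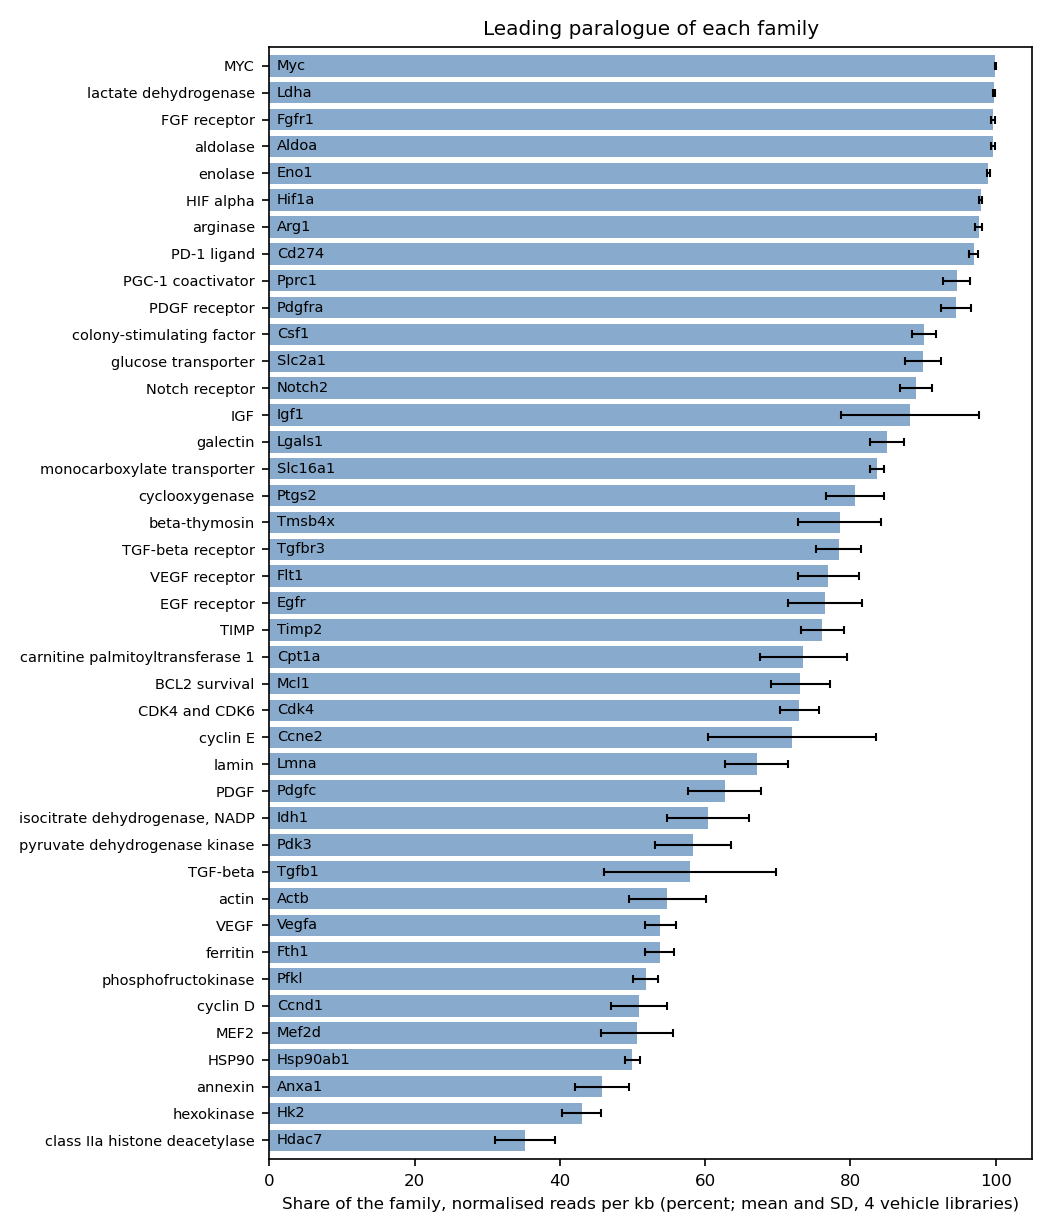
Share of the family's normalised reads per kb taken by the leading paralogue, in percent (x axis from 0), for 41 of the 43 families. Bars are means over the 4 vehicle libraries, whiskers are SD, and the name in each bar is the leading gene. Myc and Ldha take nearly all of their family, while Hdac7 and Hk2 take 35.2% and 43.0%.

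Of the later enzymes of glycolysis, aldolase, enolase and lactate dehydrogenase were each led by a single gene, with 99.0% to 99.7% of the family. Ldha, the pyruvate-reducing form of lactate dehydrogenase, took 99.7% ± 0.18 (SD, n = 4) of its family, with values of 11.53, 11.92, 11.46 and 11.58 against 4.76, 4.97, 5.05 and the lowest value for Ldhb. Aldoa took 99.6% ± 0.25 of the aldolases and Eno1 99.0% ± 0.19 of the enolases. The glucose importer gene Slc2a1 took 87.4% to 93.4% over the 4 libraries and the lactate carrier gene Slc16a1 83.6% ± 0.95, each of its family. Pkm, the pyruvate kinase gene of most tissues, was 12.66, 12.54, 12.95 and 12.70, and its paralogue was not analysed here.

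Hexokinase and phosphofructokinase, which act earlier in the pathway, were mixed. Hk2 and Hk1 took 43.0% ± 2.7 and 41.4%, and Hk2 led in 2 of 4 libraries, with leads of -0.03, 0.08, 0.22 and -0.16. Hk3, a form found in myeloid cells, took 15.6%. Pfkl took 51.8% ± 1.7 and Pfkp 38.8%, with Pfkl ahead in all 4 libraries. The pyruvate dehydrogenase kinases Pdk3 (58.3% ± 5.2) and Pdk1 (37.6%) changed order when no length or the coding length was used.

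Beyond glycolysis, Arg1 took 97.6% ± 0.51 of the arginases. Pprc1 took 94.6% ± 1.9 of the PGC-1 coactivators, which regulate mitochondrial genes, while Ppargc1a was 4.30, 4.58, 4.85 and at the lowest value. The liver-type Cpt1a, which admits fatty acids to mitochondria, took 73.5% ± 6.0. Idh1, the cytosolic isocitrate dehydrogenase, led the mitochondrial Idh2 with 60.4% ± 5.7. Ptgs2, the inducible cyclooxygenase, took 80.6% ± 4.0 against 19.4% for Ptgs1, with values of 11.29, 10.94, 11.30 and 11.32.

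Of the regulators, Myc took 99.96% ± 0.05 of its family, and Mycl was at the lowest value in replicates 2 and 4. Hif1a, whose protein is stabilised when oxygen is low, took 97.9% ± 0.24 against 2.1% for Epas1. Mcl1, which protects cells from apoptosis, took 73.1% ± 4.1 of the BCL2 survival family.

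The class IIa histone deacetylases, the targets of TMP195, were nearly level. Hdac7 took 35.2% ± 4.1, Hdac5 34.6%, Hdac4 25.4% and Hdac9 4.8%. Hdac7 was 7.89, 7.78, 7.79 and 8.0, Hdac5 7.93, 7.80, 8.06 and 7.79, and Hdac4 8.76, 8.07, 8.29 and 8.13. The lead of Hdac7 over Hdac5 was 0.02 ± 0.20 (SD), smaller than its spread, and Hdac5 was ahead in replicate 3. With no length adjustment and with the coding length, Hdac4 was the highest member, and with the APPRIS principal transcript Hdac5 was. The MEF2 factors that these deacetylases bind were shared between Mef2d (50.6% ± 4.9) and Mef2a (46.0%), whose order turned under the other length rules. In the cell cycle families Ccnd1 (50.9% ± 3.9) led Ccnd2 (30.2%), Cdk4 (72.9% ± 2.7) led Cdk6 and Ccne2 (71.9% ± 11.6) led Ccne1. The orders of the D cyclins and of the kinases turned without a length adjustment or with the coding length, and Ccne1 was level with Ccne2 in replicate 1 (-0.01).

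Receptors were mostly led by a single member. Fgfr1 took 99.7% ± 0.27 of the FGF receptors, with values of 10.23, 10.28, 10.17 and 10.31, while Fgfr2 and Fgfr3 were near the lowest value. Pdgfra took 94.5% ± 2.1 against 5.5% for Pdgfrb, the receptor of pericytes. Notch2 took 89.0% ± 2.2 of the Notch receptors, Tgfbr3, a co-receptor, 78.4% ± 3.1 of the TGF-beta receptors, and Egfr 76.5% ± 5.1 of its family. Flt1 took 77.0% ± 4.3 of the VEGF receptors against 18.4% for Kdr, the main signalling receptor of endothelium.

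Among ligands, Csf1, the macrophage growth factor, took 90.1% ± 1.6 of the colony-stimulating factors and Csf3, which acts on neutrophils, 9.1%. Cd274, which encodes PD-L1, took 97.0% ± 0.59 against 3.0% for Pdcd1lg2, with values of 9.27, 8.97, 9.06 and 8.74. Vegfa took 53.8% ± 2.1 of the VEGF family, followed by Vegfb (24.1%) and Vegfd (13.2%). Pdgfc took 62.7% ± 5.0 of the PDGF ligands and Igf1 88.2% ± 9.5 of the IGF pair. Igf2 shares 61.9% of its sequence words with an overlapping gene model, so its own level is uncertain. Tgfb1 led Tgfb3 by 0.87, 0.98 and 0.93 in replicates 1 to 3 and lay below it in replicate 4 (-0.09).

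Of the structural families, Lgals1 took 85.1% ± 2.4 of the galectins, Tmsb4x 78.5% ± 5.7 of the beta-thymosins, which bind actin monomers, Timp2 76.1% ± 3.0 of the metalloproteinase inhibitors and Lmna 67.1% ± 4.3 of the lamins. The order of Actb (54.8% ± 5.2) and Actg1 (44.8%) was not the same in every library, as the lead was 0.20, -0.01, 0.73 and 0.25. Fth1 (53.7% ± 2.0) and Ftl1 (46.3%), the subunits of ferritin, were close to each other, with Fth1 ahead in all 4 libraries. Of the sequence words of Ftl1 57.7% also occur in other genes, against 3.2% for Fth1, so their order is uncertain. Anxa1 (45.8% ± 3.7) led Anxa2 (25.6%) and Anxa5 (15.5%), and Hsp90ab1 (50.0% ± 1.0) led Hsp90b1 (31.2%) and Hsp90aa1 (18.8%). Hsp90aa1 shares 51.4% of its sequence words with other genes, against 13.2% for Hsp90ab1. For Tmsb10 this is 32.0%, against 0% for Tmsb4x. The shares within these 2 families are therefore uncertain.

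Differences between the 4 vehicle libraries were small for most genes. Over the 9265 coding genes with a length and a vehicle mean above 6.05, the median SD was 0.20. Between any 2 vehicle libraries 53 to 179 of these genes (0.57% to 1.93%) differed by more than 1. The steadiest well-expressed gene was Rock1, a kinase that acts on the actin cytoskeleton, at 10.30, 10.28, 10.28 and 10.32. The tropomyosin gene Tpm4, at 11.79, 11.79, 11.85 and 11.82, was also among the 10 steadiest.

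The 25 most variable genes ran from Ttn (SD 2.53) to mt-Nd4 (0.90), and the next, 4930523C07Rik, had an SD of 0.88. By the lists above, 6 of them are erythroid genes and 3 muscle genes, and 2 are mitochondrial. In libraries that the ranking did not use, 22 of the 25 were among the 5.01% of genes with the largest residual SD within the treated groups (7 residual degrees of freedom), and 55 of the first 100 were. The 3 that were not were Adamts2, Col7a1 and Rnf31. For 18 of the 25 the SD changed by over 1.5 times when 1 library was left out. Without replicate 3 it fell for 9 genes: Neb (0.72), Hba-a1 (0.75), Hba-a2 (0.61), Hbb-bs (0.48), Hbb-bt (0.39), Alas2 (0.50), Slc4a1 (0.40), Tent5c (0.28) and Apol11b (0.42). Without replicate 4 it fell for Ttn (1.68), 1700047I17Rik2 (0.50), Myh4 (1.15), Acta1 (0.62) and mt-Nd4 (0.53). Without replicate 2 it fell for Fam177a (0.77), Adamts2 (0.10) and Rnf31 (0.60), and without replicate 1 for Prg4 (0.37). The SD of most of the 25 thus leans on a single library. These genes were chosen for a large SD, and the other ranked genes were not checked in this way. Whether such leaning is particular to the 25 was not tested.

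**Figure D3:**
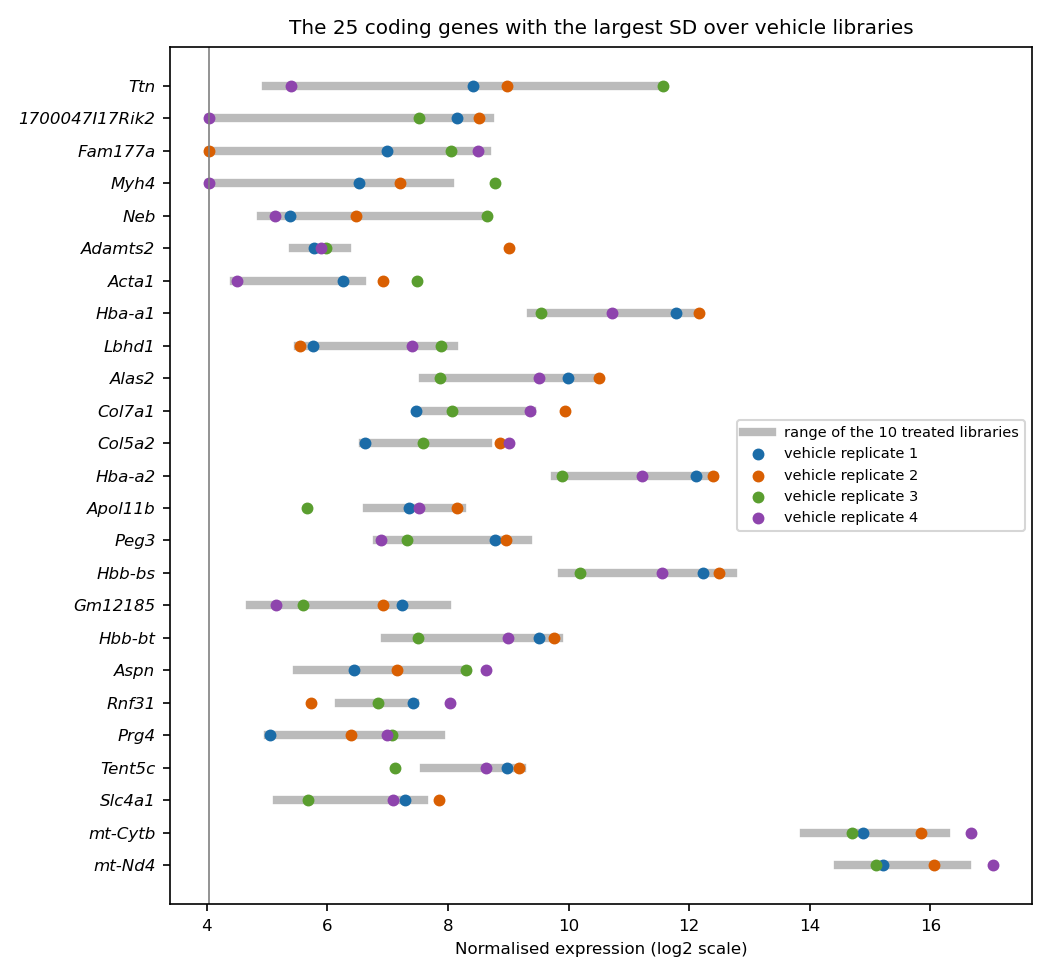
Normalised expression (x axis, log2 scale) of the 25 coding genes with the largest SD over the vehicle libraries, 1 point per vehicle library, with the range of the 10 treated libraries as a grey bar. The grey vertical line is the lowest value of the table. Adamts2 lies outside the treated range in replicate 2 alone, while the haemoglobin genes fill most of the treated range.

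Muscle genes were among the most variable. Ttn, which encodes the giant sarcomere protein titin, was 8.41, 8.99, 11.57 and 5.40. Myh4, a fast myosin heavy chain, was 6.53, 7.21 and 8.78 in replicates 1 to 3 and at the lowest value in replicate 4. Myh4 shares 30.4% of its sequence words with other genes, so its level as a single gene is uncertain. Neb, which encodes nebulin, was 5.38, 6.48, 8.65 and 5.14, and the skeletal actin gene Acta1 was 6.25, 6.93, 7.49 and 4.51. Replicate 3 was highest for 9 of the 10 muscle list members and replicate 4 lowest for 8. The mean of the list was 5.55, 5.83, 6.71 and 4.42, with an SD of 0.95, against 1.01 for the erythroid list. Several members were at the lowest value in replicate 4, the library with the fewest nuclear coding reads. The part of muscle tissue in these values was not tested.

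Erythroid genes moved together, with replicate 2 highest and replicate 3 lowest for all 7 members. Alas2, which starts haem synthesis in red cell precursors, was 9.99, 10.50, 7.87 and 9.51. Slc4a1, the anion exchanger of the red cell membrane, was 7.29, 7.85, 5.68 and 7.09. The globin genes come in near-identical pairs (Hba-a2 shares 92.6% of its sequence words with Hba-a1), so the pairs were summed. The alpha pair was 12.96, 13.27, 10.69 and 11.98 and the beta pair 12.43, 12.68, 10.37 and 11.77, in the same order of libraries. Tent5c (8.98, 9.18, 7.13 and 8.63), a poly(A) polymerase gene outside the list, had that order too.

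**Figure D4:**
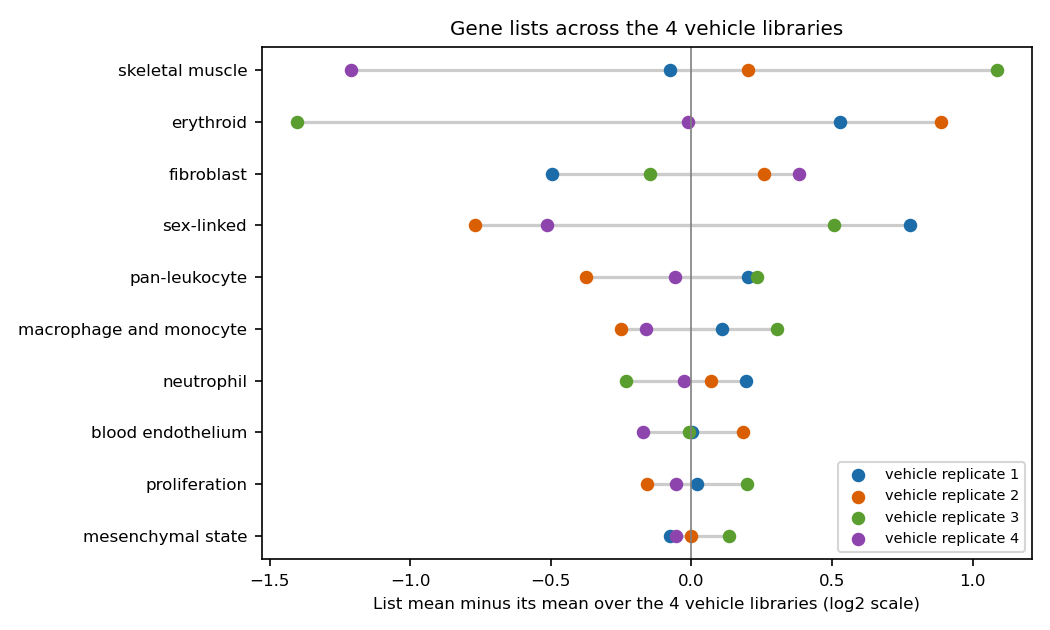
Mean of each gene list in each vehicle library minus the mean over the 4 libraries (x axis, log2 scale), 1 point per library. Muscle and erythroid lists spread over 2.30 and 2.29, with replicate 3 at the high end of the first and at the low end of the second, while proliferation and mesenchymal lists stay close to 0.

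The promoters of 2 erythroid and 2 muscle genes are shown, from 10 windows searched, as those that hold a GATA word or a CArG box, so they were chosen for their matches. The windows run from 250 bases before to 50 bases after the annotated start, from RefSeq on GRCm38.p6, on the strand of the gene. Capitals in Hbb-bs (chr7:103827879-103828178, minus strand) mark AGATAA (the GATA word) and, nearer to the start, CCACACCC (the CACC word). Capitals in Alas2 (chrX:150547167-150547466, plus strand) mark TTTATA and TTATCT, which are the reverse complements of a TATA word and of the GATA word. Capitals in Acta1 (chr8:123894726-123895025, minus strand) and Myh4 (chr11:67237562-67237861, plus strand) mark the E-box CAGCTG, the CArG box and the TATA word TATAAA or its reverse complement.
Hbb-bs: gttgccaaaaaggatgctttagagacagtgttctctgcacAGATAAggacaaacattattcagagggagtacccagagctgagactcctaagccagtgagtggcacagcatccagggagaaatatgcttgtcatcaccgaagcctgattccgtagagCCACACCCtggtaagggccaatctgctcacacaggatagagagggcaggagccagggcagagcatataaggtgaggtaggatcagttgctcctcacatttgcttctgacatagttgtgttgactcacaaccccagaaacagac
Alas2: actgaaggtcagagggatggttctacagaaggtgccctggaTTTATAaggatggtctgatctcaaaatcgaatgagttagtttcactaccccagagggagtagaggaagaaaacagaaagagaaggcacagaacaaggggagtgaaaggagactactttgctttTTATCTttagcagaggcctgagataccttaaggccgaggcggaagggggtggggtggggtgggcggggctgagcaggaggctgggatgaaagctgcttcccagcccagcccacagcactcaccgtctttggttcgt
Acta1: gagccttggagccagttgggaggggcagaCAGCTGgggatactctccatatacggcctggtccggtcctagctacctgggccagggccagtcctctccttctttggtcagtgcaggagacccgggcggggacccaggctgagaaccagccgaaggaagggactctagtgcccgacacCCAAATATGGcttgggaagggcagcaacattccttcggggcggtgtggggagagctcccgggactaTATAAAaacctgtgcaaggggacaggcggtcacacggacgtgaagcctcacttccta
Myh4: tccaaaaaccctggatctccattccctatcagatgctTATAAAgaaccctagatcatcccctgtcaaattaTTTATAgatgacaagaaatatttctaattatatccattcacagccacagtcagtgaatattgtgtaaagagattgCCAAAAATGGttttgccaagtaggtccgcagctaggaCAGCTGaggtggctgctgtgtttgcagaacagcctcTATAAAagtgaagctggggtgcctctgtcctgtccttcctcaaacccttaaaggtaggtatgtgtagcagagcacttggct

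GATA1 and KLF1, factors of red cell precursors, are known to bind GATA and CACC words, and serum response factor and MYOD, factors of muscle, are known to bind CArG boxes and E-boxes. The GATA word begins 210 bases before the start in Hbb-bs and 86 bases before it in Alas2, and the CACC word of Hbb-bs begins 93 bases before it. The CArG box begins 73 bases before the start in Acta1 and 104 bases before it in Myh4. Searched on both strands of 32851 promoters, the words were found in 11.2% (AGATAA), 3.56% (CCACACCC), 16.3% (CAGCTG), 13.6% (TATAAA) and 1.63% (CArG box) of them. Of these words none was found in the windows of Hba-a1, Hba-a2 and Ttn. Only AGATAA was searched as the GATA word, and the windows of Hba-a1 and Hba-a2 hold TGATAA, which was not counted. Hbb-bt held neither the GATA nor the CACC word, and Ckm and Mylpf held an E-box but no CArG box. The MEF2 word TAAAAATA, which 2.72% of promoters hold, was found in none of the windows shown. The words do not overlap each other in the windows shown, and a match is a description of the letters only.

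Several other genes of the 25 encode matrix proteins, with differing orders over the libraries. Col7a1, the collagen of anchoring fibrils, was 7.48, 9.94, 8.07 and 9.37, and Col5a2 was 6.62, 8.87, 7.59 and 9.02. Both were high in replicates 2 and 4 and low in replicate 1. The proteoglycan gene Aspn (6.45, 7.16, 8.30 and 8.63) and the lubricin gene Prg4 (5.05, 6.40, 7.07 and 6.98) were also lowest in replicate 1 but had a different order among the rest. The fibroblast list mean followed with 8.29, 9.05, 8.64 and 9.17. Adamts2, which trims procollagen, was 9.01 in replicate 2 against 5.78, 5.97 and 5.89 in the others and 5.43 to 6.32 in the treated libraries. Col3a1, Col1a1 and Col1a2 were, like Col7a1 and Col5a2, higher in replicates 2 and 4 than in replicates 1 and 3.

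Of the mitochondrial genes mt-Cytb was 14.88, 15.85, 14.71 and 16.67 and mt-Nd4 15.22, 16.07, 15.10 and 17.03, highest in replicate 4, the library whose mitochondrial share of reads was 70.4% against 46.2% to 58.0% in the others. In the first 100 variable genes 12 were mitochondrial. The imprinted gene Peg3 was 8.78, 8.96, 7.33 and 6.89. Rnf31, a subunit of the linear ubiquitin ligase, was 7.41, 5.72, 6.84 and 8.04, and it lay below all treated libraries (6.20 to 7.45) in replicate 2 and above them in replicate 4. Apol11b was 7.35, 8.15, 5.67 and 7.52, with replicates 2 and 3 at the ends, as for the erythroid genes. It shares 27.4% of its sequence words with other genes, so its level as a single gene is uncertain. Gm12185 (7.24, 6.93, 5.60 and 5.14) and Lbhd1 (5.76, 5.55, 7.89 and 7.40) share 28.5% and 38.1% of their sequence words with other genes and are uncertain as single genes.

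Fam177a and 1700047I17Rik2 changed places between libraries. Fam177a was 7.0, at the lowest value, 8.06 and 8.49, and 1700047I17Rik2 was 8.15, 8.52, 7.52 and at the lowest value. Of the sequence words of 1700047I17Rik2 100% occur in Fam177a, and of those of Fam177a 98.5% occur in 1700047I17Rik2. The summed pair was 8.58, 8.52, 8.71 and 8.49, with an SD of 0.10 against 2.0 and 2.05 for the genes apart, and it was 8.31 to 8.70 in the treated libraries. The pair as a whole thus varied less than the median gene, and the values of its members are uncertain as single genes.

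**Figure D5:**
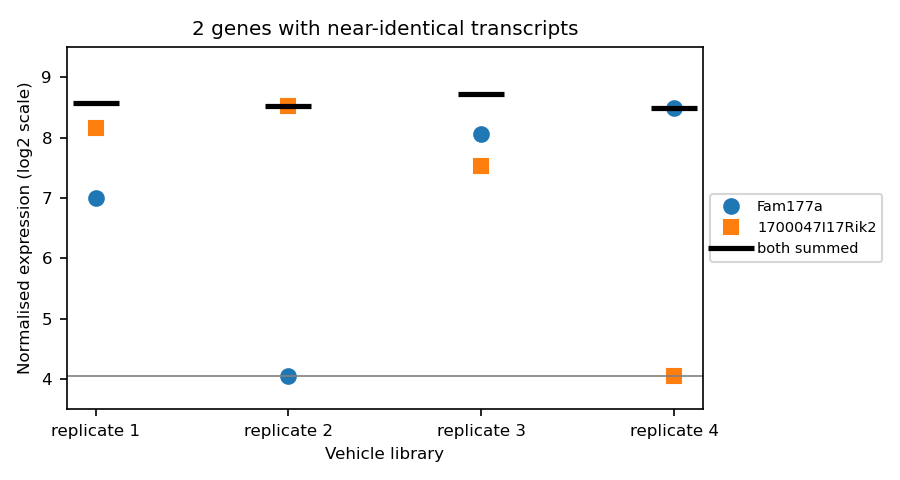
Normalised expression (y axis, log2 scale) of Fam177a, 1700047I17Rik2 and their sum in the 4 vehicle libraries (x axis), with the lowest value of the table as a grey line. Each gene falls to the lowest value in a library where the other is high, and the sum stays between 8.49 and 8.71.

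Sex-linked genes also separated the libraries. The Y-linked translation factor gene Eif2s3y was 7.17 and 6.84 in replicates 1 and 3 and at the lowest value in replicates 2 and 4. Uty was 6.23 and 6.0 in replicates 1 and 3 and likewise at the lowest value in the others. Kdm5d (6.61, 4.77, 6.37 and 5.01) and Ddx3y (5.87, 4.63, 5.82 and 4.74) were also lower in replicates 2 and 4, where they lay above the lowest value. Xist, the RNA of the inactive X chromosome, was detected in all 4 libraries, at 10.03, 10.66, 9.52 and 11.60, and was lower in replicates 1 and 3. Its order over the libraries was also that of the nuclear RNA Malat1 (16.26, 16.61, 15.89 and 17.24) and of the share of reads taken by mt-Rnr2, lowest in replicate 3 and highest in replicate 4, and the part of library quality in it was not tested. Which cells, of the host or of the graft, made these RNAs was not tested. Several other measures also lay on different sides for replicates 1 and 3 and for replicates 2 and 4. Fibroblast list means were lower in replicates 1 and 3 (8.29 and 8.64 against 9.05 and 9.17), as was the mitochondrial share of reads (50.1% and 46.2% against 58.0% and 70.4%). Pan-leukocyte means (9.44 and 9.47 against 8.86 and 9.18) and macrophage means (8.65 and 8.85 against 8.30 and 8.38) were higher there. Depth divided the libraries in the same way. Nuclear coding reads were higher in replicates 1 and 3 (6720000 and 5560000 against 3160000 and 2220000). Genes at the lowest value were fewer there (880 and 1313 against 1904 and 2744). The muscle and erythroid list means did not divide the libraries this way, as replicates 1 and 3 differed by 1.16 in the former and by 1.93 in the latter. Neutrophil means (7.53 and 7.10 against 7.40 and 7.31) and endothelial means (6.03 and 6.02 against 6.21 and 5.86) did not either. Nor did T cell means (5.71 and 5.42 against 5.24 and 5.55), while proliferation means did (8.62 and 8.80 against 8.44 and 8.54). The share of all lists that divide the libraries this way was not counted. How these measures are linked with each other, with depth or with the sex-linked genes was not tested.

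Pan-leukocyte and macrophage list means varied less than those of muscle and erythroid genes, with SDs of 0.28 and 0.25 against 0.95 and 1.01. Both SDs were above the median of 0.16 over all lists. The pan-leukocyte list mean was 9.44, 8.86, 9.47 and 9.18, with replicate 2 lowest for all 6 members, and the macrophage list mean was 8.65, 8.30, 8.85 and 8.38. The complement gene C1qa was 8.85, 8.0, 9.05 and 7.86, and C1qb (8.23, 7.34, 8.61 and 7.72) also lay higher in replicates 1 and 3. Neutrophil genes had another order, with a list mean of 7.53, 7.40, 7.10 and 7.31, lowest in replicate 3. Endothelial list means lay within 0.35 of each other (6.03, 6.21, 6.02 and 5.86).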

How the data were processed

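RNA of 14 tumour libraries was sequenced with a stranded total RNA kit, per the labels' protocols. The authors deposited log2 expression values after a variance-stabilising transformation, per the file headers and the labels. Salmon (version not stated) and the build hg38 appear in the submitters' processing notes. That build is human while the gene IDs are mouse, so it was treated as unsettled and the table was used without coordinates. The sources used here do not state filters or library scaling.

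Groups came from the sample labels. The members and gene lists were chosen with earlier results of these data known. Gene symbols were matched for 20264 of 21152 IDs (95.8%). Transcript lengths (the basic coding transcript with the longest coding sequence) and the 31-base sequence words came from GENCODE M21. With y as 2 to the deposited value and f as 2 to the lowest value, (y-f)(y-f)/y gave normalised counts. The step of 1 read in these counts gave the approximate depth, so depth and floors are estimates and cover counting error only. Salmon estimates need not be whole reads, and no count model was used.

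Levels, shares, leads and SDs are descriptions of 4 libraries. Coding genes were ranked by SD when their vehicle mean lay more than 2 above the lowest value. Vehicle was compared with the mean of the treated group means by limma 3.58.1 in R 4.3.3 on all 14 libraries, with genes whose mean lay more than 1 above the lowest value, a trend in the moderation, two-sided tests and Benjamini-Hochberg adjustment at 0.05. It was tested on simulated data. Python 3.11.15 and pandas 2.3.3 were used for the rest.

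Some members of the lists and families are not reported here. Genes named are the 25 highest per kb and the 10 highest without length, the upper members of each list and those near the lowest value, the family members, the 25 with the largest SD, the 3 smallest p in each direction, and Myc, Hdac4, Hdac5, Hdac7, Hdac9, Ptprc and Xist. Genes of the first 50 nuclear ones, the steadiest genes and the remaining muscle, collagen and complement genes were added after their values were seen. Deviations of same-numbered libraries correlated at -0.30 to 0.21 (6 of 19 pairs above 0.1), and a pair with different numbers reached 0.34. The numbers were not taken as pairs, though a weak link between same-numbered libraries was not excluded.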

Additional observations from a re-analysis of the deposited data

Results flagged for a closer look

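Of 119 results over the 4 vehicle libraries, 3 held a library that lay far from the others by Dixon's test, where chance flags about 1 in 20, or 6 here. Adamts2 was 9.01 in vehicle replicate 2, against 5.78 to 5.97 in the other 3. The lead of Tgfb1 over Tgfb3 was -0.093 in replicate 4, against 0.87 to 0.98. The lead of Ptgs2 over Ptgs1 was 2.54 in replicate 4, against 1.75 to 1.86. Replicate 4 had the fewest nuclear coding reads, and the part of depth in these values was not tested.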

How the results depend on the processing

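The comparison of vehicle with the treated groups gave 0 calls under each alternative, with 255 to 423 genes at an unadjusted p under 0.05 when 1 library was left out and a smallest adjusted p by limma of 0.582 (without vehicle replicate 3). With the replicate block 0 genes were called and 323 had an unadjusted p under 0.05. The replicate numbers were not taken to pair the samples, though 6 of 14 libraries correlated best with their own number. Of the 25 most abundant coding genes 18 to 25 stayed in the top 25 under the alternatives. Of the 25 most variable genes 16 stayed with a threshold 1 above the lowest value and 15 with a threshold 3 above it, and 14 to 21 without 1 library, fewest without replicate 3. The SD of 18 of the 25 moved by over 1.5 times without 1 library, for 9 of them without replicate 3. No such count was made over the other ranked genes.

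Leads that turned were those of Pdk3 over Pdk1 (-0.59 with no length, -0.52 with coding length), Mef2d over Mef2a (-1.40, -1.44 and, with the APPRIS principal transcript, -0.80), Ccnd1 over Ccnd2 (-0.0076 and -0.037), Cdk4 over Cdk6 (-1.01 and -0.90), Hdac7 over Hdac5 (-0.029 with no length, -0.19 with the principal transcript, and -0.056 to 0.104 when 1 library was left out, lowest without replicate 4, with Hdac4 highest with no length and with coding length) and Hk2 over Hk1 (-0.033 to 0.092 when 1 library was left out, lowest without replicate 3). The lengths themselves set the first 4. The coding and principal lengths were chosen after seeing the data. Of the 43 families 38 to 43 kept their leading member. Marker genes above the threshold were 118 with a threshold 2 above the lowest value, against 167. Depth limits genes near the lowest value, above all in replicate 4.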
